A study of Mus musculus with 4 samples.

Results

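The mouse miRNAs mmu-miR-21a-5p, mmu-miR-146a-5p, mmu-miR-146b-5p and mmu-miR-155-5p, written here without the species prefix, were measured in the stromal vascular fraction (SVF) of visceral white adipose tissue (visWAT) after 3 days of β3-adrenergic stimulation. They were chosen as miRNAs known to be induced by inflammatory signalling, and were found on the arrays by their exact names among the spots that are no controls, which gave 4 of the 1247 mouse miRNAs on the array. The study hybridised 4 one-colour Agilent miRNA arrays, 2 for mice injected with the vehicle PBS and 2 for mice injected with 1 mg/kg of CL-316243 (CL), an agonist of the β3-adrenoceptor. All mice were 8-week-old C57/BL6 females by the protocol in the labels, although the strain labels of the single samples differ in their last digit, and the labels describe housing at room temperature on a standard diet. The SVF, the cells that are pelleted once the floating adipocytes have been removed from collagenase-digested fat, mixes leukocytes, endothelial cells, mural cells and adipocyte precursors. Each array held RNA pooled from 5 mice, so that the spread between arrays is that between pools, and fewer cells of a type cannot be told apart from less RNA per cell. The injections are described as subcutaneous in the labels and as intraperitoneal in the study's methods, which also describe a move to thermoneutral housing ahead of the experiments.

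A miRNA is a short RNA that guides a silencing complex to mRNAs, mainly through pairing of its seed, bases 2 to 8 from the 5′ end. The gene of miR-146a is transcribed on NF-κB signalling in myeloid cells. The products of both miR-146 genes repress the adaptors Irak1 and Traf6 of that pathway, a negative feedback on Toll-like receptor signals. miR-155, cut from the noncoding transcript Mir155hg, is induced in activated macrophages and lymphocytes, where it represses inhibitors of cytokine signalling such as Socs1 and the phosphatase Ship1. miR-21 is induced by STAT3 and AP-1, represses Pdcd4, and is also abundant in resting fibroblasts, smooth muscle cells and many other cell types. β3-adrenergic agonists drive lipolysis in adipocytes, and macrophages are known to enter white fat during the first days of such treatment.

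The mature sequences show which of the 4 miRNAs share a seed, given in capitals. They are those of RefSeq (GRCm38.p6), written from 5′ to 3′.
miR-21a-5p: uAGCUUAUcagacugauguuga
miR-146a-5p: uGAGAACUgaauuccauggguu
miR-146b-5p: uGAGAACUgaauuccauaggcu
miR-155-5p: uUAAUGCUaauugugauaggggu
The sisters miR-146a-5p and miR-146b-5p have the same seed and share 20 of 22 bases. They differ by the substitutions G18A and U21C, with the base of miR-146a-5p first and positions counted from 1 at the 5′ end. miR-21a-5p and miR-155-5p have seeds of their own.

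In the mouse genome (GRCm38.p6), miR-21a-5p lies on the minus strand at chr11:86584120-86584141, within the range that RefSeq gives the protein-coding gene Vmp1. miR-146a-5p lies on the minus strand of the same chromosome at chr11:43374435-43374456, and its hairpin overlaps no other RefSeq gene. miR-146b-5p lies on the plus strand at chr19:46342790-46342811, within the long noncoding RNA gene Gm36493. miR-155-5p lies on the plus strand at chr16:84714143-84714165, within its host gene Mir155hg. Exons and introns of these hosts were not analysed here.

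The array measures each of these miRNAs with a pair of probes of different length, each spotted 20 times. The longer probes of miR-146a-5p and miR-146b-5p, both of 19 nt, are shown because they decide whether the sisters can be read apart, with the bases in capitals where the probes differ.
Probe of miR-146a-5p: aAccCatggaattcagttc
Probe of miR-146b-5p: aGccTatggaattcagttc
The probes differ at the 2 bases that face the 2 differing bases of the miRNAs, and each of the 8 probes of the 4 miRNAs was fully complementary to its own mature miRNA only. Binding of a sister miRNA despite these mismatches was not tested.

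All 4 miRNAs were detected by the scanner software on all 4 arrays, and no spot of the arrays was saturated. A single slide carried the arrays and was scanned once. It held the vehicle arrays in row 1 and the CL arrays in row 2, and effects of the row cannot be told apart from those of treatment. Each of the slide columns 3 and 4 held 1 array of each group. Negative-control spots had mean signals between 31.7 and 38.6, and between 386 and 431 miRNAs were detected per array.

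Before normalization, the probes of miR-21a-5p were far above the negative controls. The 20-nt probe gave median spot signals of 7307 and 3571 linear units in vehicle 1 and vehicle 2, and of 9960.4 and 10201 in CL 1 and CL 2. The 19-nt probe of miR-146a-5p gave 359.5 and 292 in the vehicle arrays and 297 and 321 in the CL arrays. The matching probe of miR-146b-5p gave 199.5 and 169.8 in the vehicle arrays and 225 and 281 in the CL arrays. Both probes of miR-21a-5p and both of miR-146b-5p were therefore brighter in both CL arrays than in both vehicle arrays already in the unnormalized signals, whereas those of miR-146a-5p overlapped. The 18-nt probe of miR-155-5p gave 81.3 and 83.2 in the vehicle arrays and 71.8 and 75.5 in the CL arrays. Its 17-nt probe lay close to the negative controls, with median signals between 44.7 and 50.4. Only 3 and 7 of the 20 spots of this probe in the vehicle arrays, and 0 and 3 in the CL arrays, were well above background. All spots of the other 7 probes were well above background on every array, so that miR-155-5p is the member with the least signal to measure a change by.

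**Figure D1:**
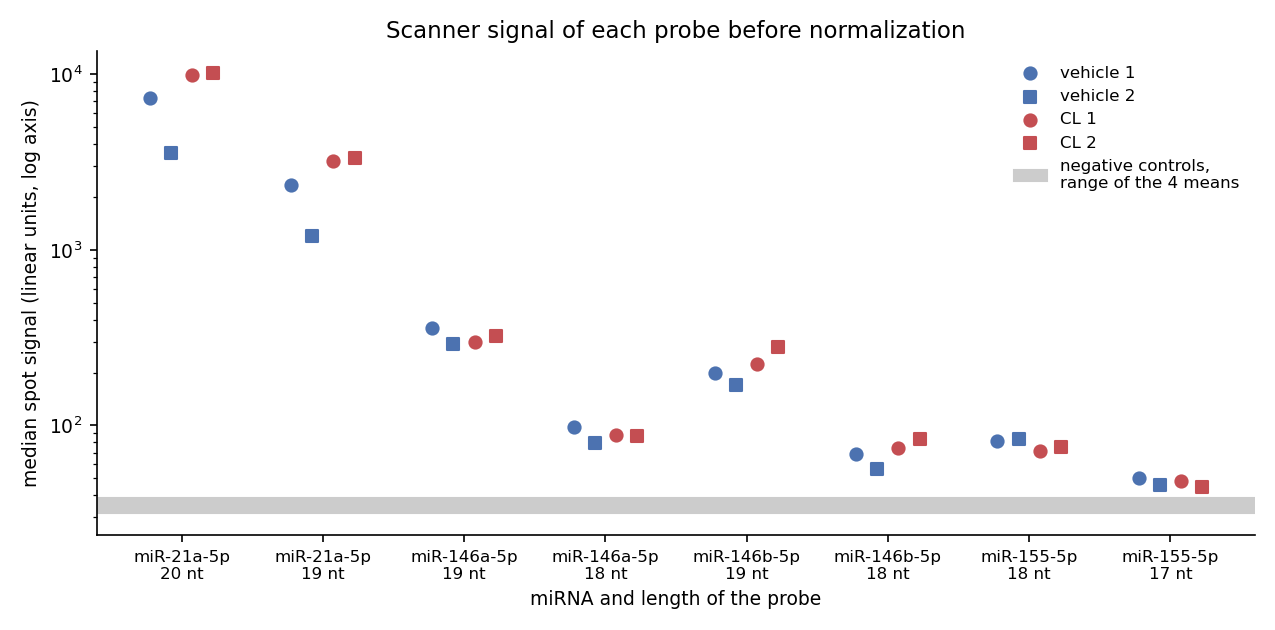
Median signal of the 20 spots of each probe on each array before normalization, in linear scanner units on a log axis, with vehicle arrays in blue and CL arrays in red. The grey band spans the mean signals of the negative controls (31.7 to 38.6). Signals of the miR-21a-5p and miR-146b-5p probes are highest in the 2 CL arrays, and the 17-nt probe of miR-155-5p sits just above the band on all 4 arrays.

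After normalization between arrays, miR-21a-5p and miR-146b-5p were higher in CL-treated than in vehicle-treated SVFs at an unadjusted p of 0.05, and miR-146a-5p and miR-155-5p were not. The question was whether each miRNA differed between CL and vehicle, and it was tested by limma's moderated linear model on log2 signals over the 425 miRNAs that were detected on every array of the vehicle group, the CL group or both. At a Benjamini-Hochberg adjusted p of 0.05 this fit called 0 of 425 miRNAs (0%), the 4 miRNAs included. The study shows its miRNAs at an unadjusted threshold. At an unadjusted p of 0.05, limma called 149 (35.1%), 80 of them higher with CL (18.8%) and 69 lower (16.2%). The 2 miRNAs called among 4 have to be read against this share. With the slide column, which is also the replicate number, as a block in the same fit, 86 miRNAs (20.2%) passed the adjusted threshold, 46 of them higher with CL (10.8%) and 40 lower (9.41%), and miR-21a-5p was the only one of the 4 among them.

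**Figure D2:**
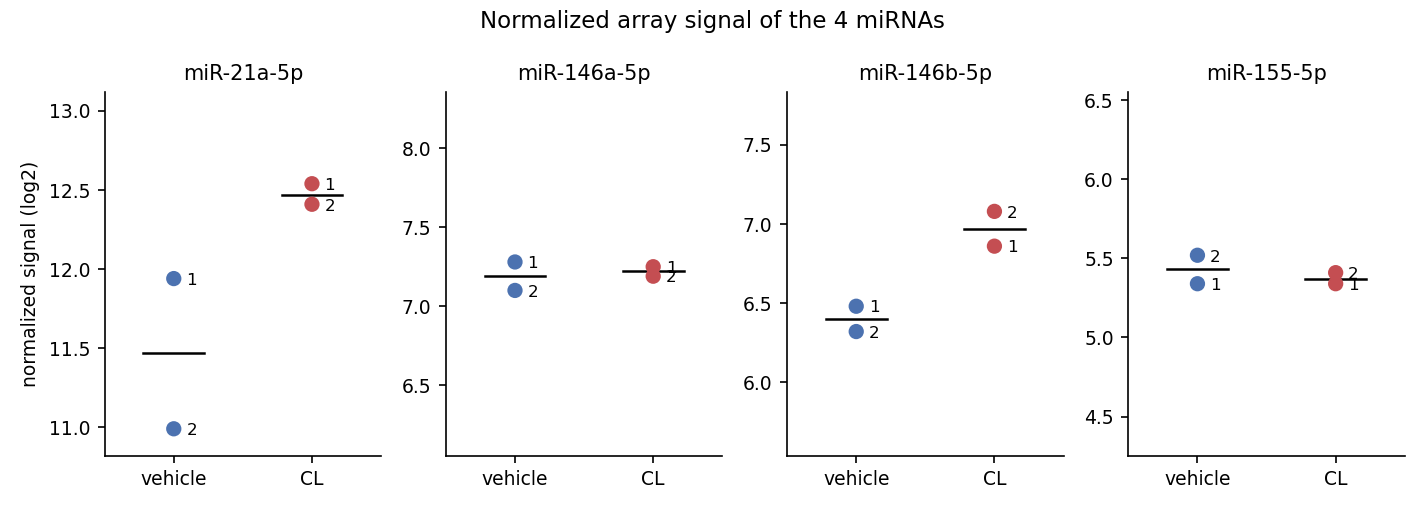
Normalized log2 signal of each miRNA on the 2 vehicle (blue) and 2 CL (red) arrays, with the replicate number beside each point and the group mean as a black line. Each panel spans the same range of log2 units around its own mean, since levels of different miRNAs are not comparable on an array. Vehicle 1 and vehicle 2 stand 0.95 apart for miR-21a-5p, and the groups overlap for miR-146a-5p and miR-155-5p.

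miR-21a-5p, the miRNA of the STAT3 and AP-1 pathways, had normalized log2 signals of 11.94 and 10.99 in vehicle 1 and vehicle 2 and of 12.54 and 12.41 in CL 1 and CL 2. Both CL arrays were above both vehicle arrays, and the CL arrays lay close together while the vehicle arrays were far apart. The group means were 11.47 ± 0.67 (SD, n = 2) with vehicle and 12.47 ± 0.09 (SD, n = 2) with CL. The difference was 1.00 on the log2 scale (SE 0.34), 2.01-fold with a 95% interval of 1.07 to 3.78 in limma's fit (adjusted p = 0.131, exact permutation p = 0.333). Of the 425 tested miRNAs, 20 (4.71%) had a difference with CL at least as large in this direction. The difference between the vehicle arrays, 0.95, exceeded that between vehicle 1 and either CL array. This spread was not particular to miR-21a-5p. Over all tested miRNAs the median absolute log2 difference was 0.273 between the vehicle arrays and 0.0946 between the CL arrays. It was 0.251 and 0.196 from vehicle 1 to CL 1 and CL 2, and 0.484 and 0.418 from vehicle 2 to them. For miR-21a-5p, leaving out vehicle 1 gave a ratio of 2.79, and leaving out vehicle 2 gave 1.44. With the slide column as a block, the SE of miR-21a-5p fell to 0.23 and its adjusted p to 0.0347 in limma. The block leaves little spread within a miRNA to estimate from, and limma's SE then draws largely on the other miRNAs. The smaller SE therefore does not show that the column accounts for the spread of miR-21a-5p. CL minus vehicle of miR-21a-5p was 0.59 in column 3 and 1.42 in column 4. The study's methods name SAM, which was computed here anew rather than with the study's package. By this version of SAM and by the methods' t-test, miR-21a-5p did not pass the unadjusted threshold. It also missed it with the deposited log2 table, the scanner's total signal, scaling to the 75th percentile of detected miRNAs, the local background, the longest probe alone and no filter.

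The probes and spots of miR-21a-5p moved together. Its 20-nt probe gave a difference of 0.94 and its 19-nt probe one of 1.09 on the log2 scale. Of its 40 spots, 32 were marked as outliers on no array, and in all 32 both CL arrays were above both vehicle arrays. These spots share the same 4 arrays and are not replicates of the treatment.

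miR-146a-5p, one of the sisters in the feedback on NF-κB, had log2 signals of 7.28 and 7.10 in the vehicle arrays and of 7.25 and 7.19 in the CL arrays. The CL values lay between the vehicle values. The means were 7.19 ± 0.13 (SD, n = 2) and 7.22 ± 0.05 (SD, n = 2), and the difference was 0.03 on the log2 scale (SE 0.13). This is 1.02-fold with a 95% interval of 0.802 to 1.30 in limma's fit (adjusted p = 0.877, exact permutation p = 1). An increase of the signal by more than 1.30-fold lies outside the interval. Since its 18-nt probe gave median signals of only 79.7 to 98.5, the interval bounds the signal rather than the RNA. Of its 34 spots that were marked as outliers on no array, 2 had both CL arrays above both vehicle arrays, 2 had both below, and 19 had the higher mean with CL. Its sign turned with the processing, as with median centring (-0.04), no normalization between arrays (-0.08) and the mean over spots (-0.04), and no direction is given for it.

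miR-146b-5p, with the same seed, had log2 signals of 6.48 and 6.32 in the vehicle arrays and of 6.86 and 7.08 in the CL arrays. Both CL arrays were above both vehicle arrays, with little spread within either group. The means were 6.40 ± 0.11 (SD, n = 2) with vehicle and 6.97 ± 0.16 (SD, n = 2) with CL. The difference was 0.57 on the log2 scale (SE 0.15), 1.49-fold with a 95% interval of 1.13 to 1.94 in limma's fit (adjusted p = 0.102, exact permutation p = 0.333). A difference with CL at least as large was found for 62 of the 425 miRNAs (14.6%). With the slide column as a block, the adjusted p of miR-146b-5p was 0.0758 in limma, and CL minus vehicle was 0.38 in column 3 and 0.76 in column 4. Without CL 1 (0.68) or CL 2 (0.46) the difference kept its direction. It missed the unadjusted threshold with median centring, with no normalization between arrays and by the methods' t-test. With median centring, limma gave all 4 miRNAs the same SE of 0.337, which is not the spread of miR-146b-5p alone. The 19-nt probe of miR-146b-5p gave a difference of 0.59 and its 18-nt probe one of 0.52. Of its 30 spots marked on no array, 29 had both CL arrays above both vehicle arrays and 30 the higher mean with CL.

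miR-155-5p, the miRNA of activated macrophages and lymphocytes, had log2 signals of 5.34 and 5.52 in the vehicle arrays and of 5.34 and 5.41 in the CL arrays. The groups overlapped. The means were 5.43 ± 0.12 (SD, n = 2) and 5.37 ± 0.05 (SD, n = 2), and the difference was -0.06 on the log2 scale (SE 0.13). This is 0.961-fold with a 95% interval of 0.757 to 1.22 in limma's fit (adjusted p = 0.769, exact permutation p = 0.667). The 18-nt probe, with all spots above background, gave a difference of -0.16, and the 17-nt probe near the negative controls gave -0.02. Signal close to background narrows measured ratios, so that the interval bounds the change of the signal rather than that of the RNA. Of 35 spots marked on no array, 1 had both CL arrays above both vehicle arrays, 9 had both below, and 8 had the higher mean with CL. The sign of its difference turned with the scanner's total signal (0.18) and the deposited log2 table (0.01), and no direction is given for it either.

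Over the 425 tested miRNAs the median difference was -0.01 on the log2 scale, with quartiles of -0.33 and 0.34, and over the 4 miRNAs it was 0.30. miR-21a-5p and miR-146b-5p lay above the upper quartile, and miR-146a-5p and miR-155-5p lay between the quartiles. Arrays of the 2 groups did not overlap for 310 of the 425 miRNAs (72.9%), 162 of them higher with CL (38.1%), and for 2 of the 4. Across the 425 miRNAs, which share the same 4 arrays, CL minus vehicle was larger where the longest probe had more bases (rho 0.47, Spearman) and smaller where it had a larger share of C (rho -0.43). The longest probes of miR-21a-5p, miR-146a-5p, miR-146b-5p and miR-155-5p had 20, 19, 19 and 18 nt, with 25.0%, 26.3%, 21.1% and 38.9% of C. Once each array's linear trend on probe length and on C and G share was removed, the difference was 0.71 for miR-21a-5p and 0.32 for miR-146b-5p. The former still passed the unadjusted threshold of limma's fit and the latter no longer did, where 166 of the 425 miRNAs (39.1%) passed. The difference was then -0.19 for miR-146a-5p and -0.12 for miR-155-5p. The part of the probe trend in these results was not tested further.

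**Figure D3:**
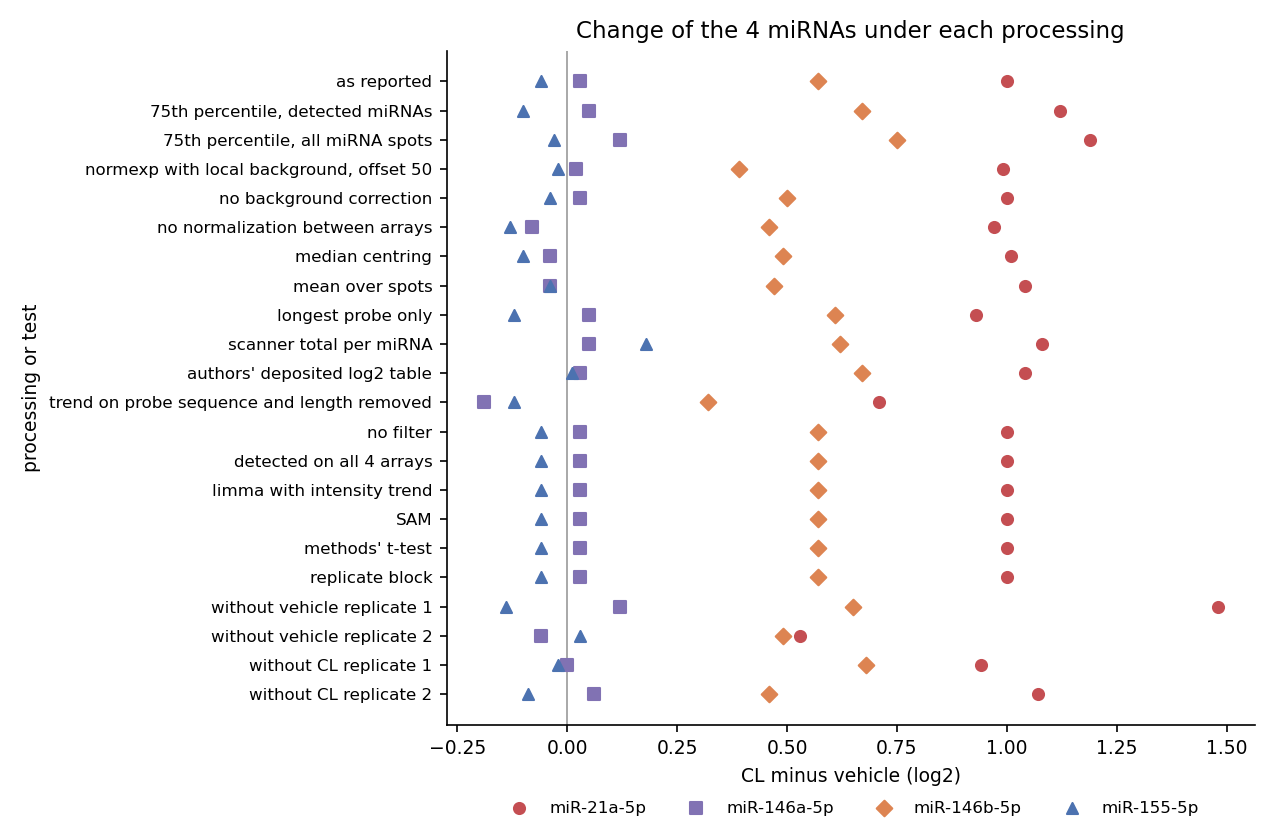
CL minus vehicle on the log2 scale (x axis) for the 4 miRNAs under the reported processing (top) and each alternative processing, test or left-out array (y axis). miR-21a-5p ranges from 0.53 to 1.48 and miR-146b-5p from 0.32 to 0.75, both above 0 throughout, whereas miR-146a-5p and miR-155-5p lie on both sides of 0.

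The 4 miRNAs were also set against each other within each array, which asks whether they moved by unequal amounts. Such a difference also holds the unequal brightness of the probes, so that only its change between groups was read. For the sisters, miR-146b-5p minus miR-146a-5p was -0.80 and -0.78 on the log2 scale in vehicle 1 and vehicle 2 and -0.39 and -0.10 in CL 1 and CL 2. The vehicle arrays were nearly equal in this measure, and both CL arrays were above them. The change of 0.54 was 0.41 in column 3 and 0.67 in column 4, and was 0.51 with the probe trend removed. The two-sided exact permutation test gave p = 0.333, which is the smallest p that 2 arrays against 2 allow, and 0.5 after adjustment over the 6 pairs. The direction held under all 21 alternatives, with values from 0.37 to 0.68. Those that changed only the filter, the test or the block could not move the change of 0.54 and add nothing to this.

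The CL and vehicle arrays were also apart for miR-21a-5p minus miR-146a-5p (change 0.97), miR-21a-5p minus miR-155-5p (1.06) and miR-146b-5p minus miR-155-5p (0.63), each with an exact permutation p of 0.333 and 0.5 after adjustment. They overlapped for miR-21a-5p minus miR-146b-5p, where the change was 0.43 (exact permutation p = 0.667, adjusted 0.8), and for miR-146a-5p minus miR-155-5p, where it was 0.09 (exact permutation p = 1, adjusted 1). The change of miR-21a-5p minus miR-146b-5p was 0.21 in column 3 and 0.65 in column 4 and stayed above 0 under all 21 alternatives (0.04 to 0.83). Here too, the filter, the test and the block could not move the value. With 2 arrays against 2, the permutation test can separate no pair at 0.05.

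**Figure D4:**
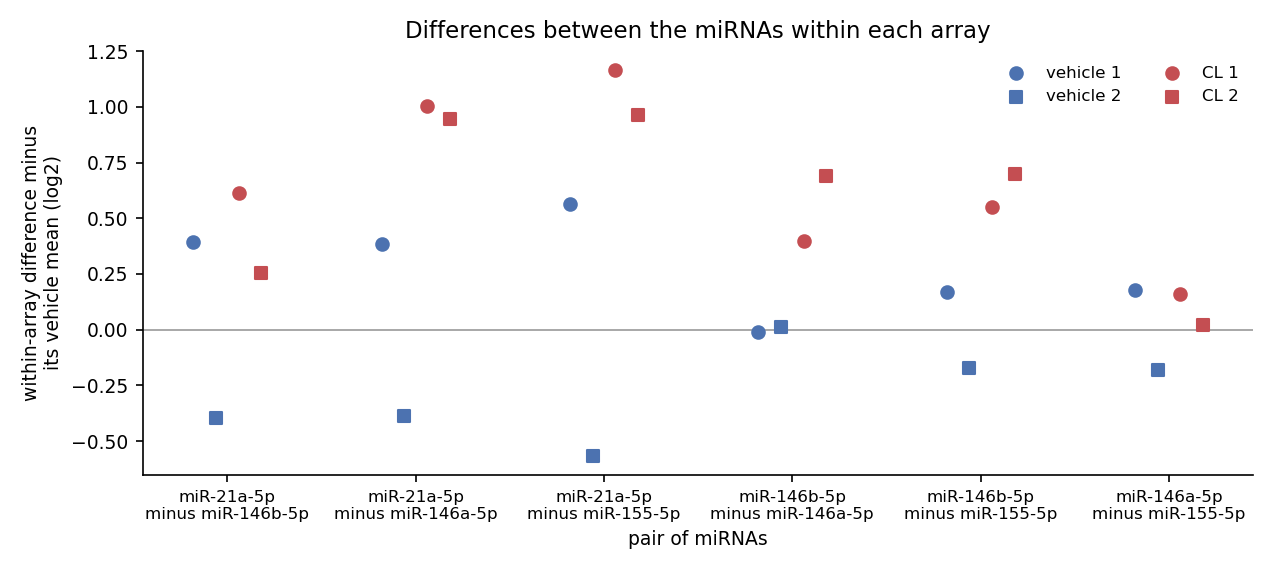
Difference between the log2 signals of each pair of miRNAs within an array, minus the mean of the 2 vehicle arrays (y axis, log2), for vehicle (blue) and CL (red) arrays. For miR-146b-5p minus miR-146a-5p the vehicle arrays lie close to 0 and both CL arrays above them, and for miR-21a-5p minus miR-146b-5p and miR-146a-5p minus miR-155-5p the groups overlap.

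The opposite arms of the hairpins were mostly not detected. miR-21a-3p, the passenger strand of miR-21a-5p, was detected on all 4 arrays, with log2 signals of 4.41 and 4.34 in the vehicle arrays and of 4.62 and 4.36 in the CL arrays. These overlapped, and the difference of 0.11 (SE 0.15, limma adjusted p = 0.61) has a 95% interval of -0.28 to 0.50, which bounds only the change of a signal close to background. Its 15-nt probe had 9 and 1 of 10 spots well above background in the vehicle arrays and 10 and 3 in the CL arrays, and its 2 shortest probes had none. In the deposited log2 table its difference was 1.56, without a call. miR-146a-3p, miR-146b-3p and miR-155-3p were detected on no array. Of the miRNAs named like miR-21a, miR-21c shares the seed of miR-21a-5p and miR-21b has another.
miR-21a-5p: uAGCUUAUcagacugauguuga
miR-21c: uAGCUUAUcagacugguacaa
miR-21b: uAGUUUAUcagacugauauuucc
Neither miR-21b nor miR-21c was detected on any array. Of the 1247 array miRNAs, 1017 had a RefSeq sequence, and among these no other shares a seed with one of the 4. The seeds of the rest were not checked.

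Further miRNAs known from inflammatory signalling or macrophages were taken as a list of 16. On all 4 arrays 12 of them were detected, and miR-9-5p, miR-147-3p, miR-187-3p and miR-511-5p, the first 3 of which are induced by Toll-like receptor signals, were detected on none. Of the 12 tested, 3 were higher with CL at the unadjusted threshold and 0 lower, against 18.8% and 16.2% of all tested miRNAs, and 2 were higher at the adjusted threshold with the slide column as a block, against 10.8% of all. With the probe trend removed, 5 of the 12 were higher and 2 lower at the unadjusted threshold, against 21.6% and 17.4% of all. The median difference of the 12 was 0.17 on the log2 scale in the reported fit, with a range of -0.26 to 0.86.

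The 3 that were higher in the reported fit were miR-125b-5p, miR-34a-5p and miR-210-3p. miR-125b-5p, which represses Tnf and is also abundant in fibroblasts, had log2 signals of 11.40 and 10.93 with vehicle and of 11.99 and 12.06 with CL (difference 0.86, SE 0.20, limma adjusted p = 0.102). miR-34a-5p, a target of p53, had 7.33 and 7.00 with vehicle and 7.85 and 7.92 with CL (difference 0.72, SE 0.16, limma adjusted p = 0.102). For both, the CL arrays were apart from the vehicle arrays and the adjusted p with the slide column as a block was 0.0347 and 0.0418 in limma. miR-210-3p, the miRNA of the hypoxia response, had a difference of 0.36 (SE 0.13, limma adjusted p = 0.135, and 0.175 with the block).

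The remaining 9 did not pass the unadjusted threshold in the reported fit. miR-223-3p, the main miRNA of neutrophils and other myeloid cells, had log2 signals of 10.34 and 10.24 with vehicle and of 10.36 and 10.40 with CL (difference 0.09, 95% interval -0.23 to 0.40). miR-132-3p and miR-212-3p, which share a transcript induced by CREB, had differences of 0.18 and 0.19. The cluster of miR-99b-5p, let-7e-5p and miR-125a-5p, known to be induced in stimulated macrophages, had differences of 0.05, -0.26 and 0.00. miR-221-3p and miR-222-3p, which also share a transcript, had -0.13 and 0.17, and miR-511-3p, cut from an intron of the macrophage gene Mrc1, had 0.23.

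**Figure D5:**
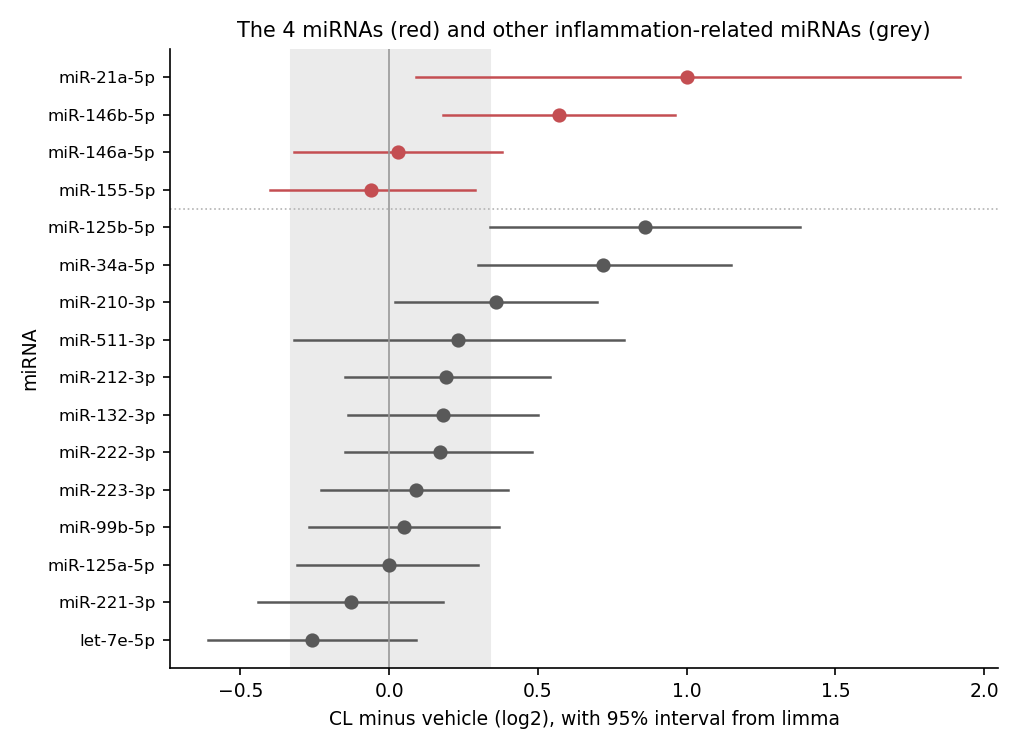
CL minus vehicle on the log2 scale with its 95% interval from limma's fit (x axis) for the 4 miRNAs (red) and the 12 tested miRNAs of the inflammation-related list (grey). The shaded area spans the quartiles of all 425 tested miRNAs (-0.33 to 0.34). The intervals of miR-21a-5p, miR-146b-5p, miR-125b-5p, miR-34a-5p and miR-210-3p lie above 0.

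Markers of several cell types of the SVF also differed between CL and vehicle, some higher and some lower with CL. The 5 leukocyte miRNAs were all detected, and miR-142-3p, found in all blood cell lineages, had log2 signals of 9.32 and 7.70 in the vehicle arrays and of 10.62 and 10.57 in the CL arrays. At the unadjusted threshold, used for all marker calls here and passed by 18.8% of all tested miRNAs as higher and by 16.2% as lower, 2 of the 5 were higher with CL (miR-142-3p by 2.09 and miR-142-5p by 1.95), the lymphocyte miRNA miR-150-5p was lower (-0.89), and miR-223-3p and miR-342-3p did not pass (0.09 and 0.10). The summed linear signal of this list was 2637 and 2079 with vehicle and 3773 and 3696 with CL. Such sums, here and below, follow the brightest miRNAs of a list. Since levels of different miRNAs are not comparable on an array, they do not measure the amount of a cell type. Both endothelial miRNAs were lower with CL (a difference of -1.37 for miR-126-3p and of -0.80 for miR-126-5p), with sums of 15504 and 14238 against 5149 and 6470.4.

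Of 6 mesenchymal and mural miRNAs, 4 were higher with CL and 1 was lower, against the same 18.8% and 16.2% of all tested miRNAs. Those higher were miR-199a-3p, miR-199a-5p, miR-199b-5p and miR-214-3p, by 0.95 to 1.48, and miR-145a-5p of smooth muscle was lower (-0.75), with sums of 4044 and 2556 against 6567 and 6728. Of these, miR-199b-5p had log2 signals of 10.48 and 9.43 in the vehicle arrays and of 11.44 and 11.43 in the CL arrays. All 3 red cell miRNAs were higher (miR-451a by 0.73, miR-144-5p by 0.92 and miR-144-3p by 2.98), with sums of 8204 and 9550.3 against 16907 and 14295. With the probe trend removed, miR-451a (0.24) and miR-144-5p (0.37) were no longer called, and the ratio of miR-144-3p was 12.6 without vehicle 1 and 4.92 without vehicle 2. The hepatocyte miRNA miR-122-5p was detected on no array, and so were 4 of 5 epithelial and mesothelial miRNAs. The 3 muscle miRNAs were detected without a call, with sums of 284 and 144 against 242 and 276, and the neural miRNA miR-124-3p was detected on all arrays and lower with CL (-1.68). The part of these shifts in cell type markers in the values of miR-21a-5p, miR-146a-5p, miR-146b-5p and miR-155-5p was not tested.

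The miRNAs whose pattern over the 4 arrays was most like that of each member were found by the Euclidean distance between log2 signals, each centred on its own mean. For miR-21a-5p these were miR-340-5p (distance 0.0786, CL minus vehicle 0.94), miR-101b-3p (0.0835, 0.99) and miR-377-3p (0.0983, 0.92). For miR-146b-5p they were miR-676-3p (distance 0.158, CL minus vehicle 0.56), miR-100-5p (0.173, 0.72) and miR-33-5p (0.176, 0.50). Since these neighbours were chosen for the pattern over these arrays, their higher signal with CL follows from the choice, and the sign of miR-676-3p turned with the scanner's total signal (-0.23). For miR-146a-5p the nearest were let-7a-1-3p (distance 0.0746, CL minus vehicle 0.03), miR-328-3p (0.093, 0.06) and miR-26a-5p (0.102, 0.12), and for miR-155-5p they were miR-3058-3p (0.0242, -0.06), miR-551b-5p (0.046, -0.03) and miR-874-3p (0.0478, -0.07). The signs of all 6 neighbours of miR-146a-5p and miR-155-5p turned with the processing, and some values became large, with 3.64 (scanner total) and 3.34 (deposited table) for let-7a-1-3p, and, again in the deposited values, 1.69 for miR-328-3p, past the unadjusted threshold, and -3.76 for miR-3058-3p. With only 4 arrays, many miRNAs have near patterns, and the distances are a description.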

How the data were processed

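RNA of 2 vehicle and 2 CL arrays was measured. The authors deposited scanner files of Agilent Feature Extraction 10.7.1.1, which give the intensity of each spot on a linear scale, and a log2 table of processed values, which they describe as quantile-normalized. In that deposited log2 table the column medians were -3.31, -3.30, -3.20 and -3.26, the values of detected miRNAs ranked as the log2 signals computed here (Spearman's rho 0.993 to 0.995 across miRNAs), and the table is therefore not centred per miRNA and runs in the direction of the signal. How exactly the table was scaled is unknown. Its rho with the scanner's total signal, used as an alternative below, was lower, at 0.616 to 0.669, so that the scanner total ranks miRNAs differently. Groups came from the sample labels, and the number of pooled mice from the study.

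From the spot intensity, limma 3.58.1 in R 4.3.3 corrected the background with the normexp model without local background or offset. After removal of control and outlier-flagged spots, quantile normalization was applied between arrays, and the spots of each miRNA were summarised by median polish on the log2 scale. The 425 of 1247 miRNAs detected on every array of either group were tested with lmFit and eBayes. Tests were two-sided at a threshold of 0.05, with p-values adjusted after Benjamini and Hochberg. The number of arrays, 2 per group, limits the precision. The fit was also run on simulated data. The simulated noise was independent for each miRNA, without shifts shared by the miRNAs of an array. Differences between miRNAs used exact permutation tests. Sequences are those of RefSeq, where 1017 of the 1247 array names were found.

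The replicate number equals the slide column. The deviations of same-numbered arrays from the means of their groups correlated with r = 0.12 over 425 miRNAs, and the labels do not pair them, so the block is given beside the values. The 4 miRNAs, the lists of inflammation-related and cell type miRNAs, the tests and the alternatives were chosen with earlier results of these data known. The text names the 4 miRNAs, their opposite arms, miRNAs that share a seed or name, the lists, and the 3 nearest patterns per miRNA.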

Additional observations from a re-analysis of the deposited data

How the results depend on the processing

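Processing was varied in the background correction, the scaling, the summary over spots, the filter, the test, the probe trend, the replicate block and the arrays used. Differences are on the log2 scale, and causes of changes were not tested. Where only the filter, the test or the block was varied, a difference stays as it is and only its p can change. Where a single array was left out, the spread came from the other group alone. Passing or missing a threshold there says little about a miRNA. Over 21 alternatives miR-21a-5p kept its direction and passed the unadjusted threshold in 13, and miR-146b-5p kept its direction (0.32 to 0.75) and passed it in 15. Their adjusted p ranged from 0.00833 to 0.359 and from 0.0321 to 0.604.

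With all 4 arrays, miR-21a-5p passed the adjusted threshold with median centring (1.01) and with the replicate block (1.00). With median centring, limma gave all 4 miRNAs the same SE of 0.337, so that this pass does not measure the spread of miR-21a-5p alone. Without single arrays the difference of miR-21a-5p ranged from 0.53, without vehicle 2, to 1.48, without vehicle 1. miR-146b-5p did not pass the adjusted threshold in any fit with all 4 arrays. It ranged from 0.46 to 0.68 without single arrays, and differed by 0.38 and 0.76 within slide columns 3 and 4. miR-146a-5p was negative without normalization between arrays (-0.08), with median centring (-0.04), the mean over spots (-0.04), the probe trend removed (-0.19) and within column 3 (-0.03), and ranged from -0.06 to 0.12 without single arrays. miR-155-5p was positive with the scanner total (0.18) and the deposited log2 table (0.01), and ranged from -0.14 to 0.03 without single arrays. miR-146a-5p minus miR-155-5p turned with the mean over spots (to just under 0), the scanner total (-0.13) and the trend removed (-0.06), and ranged from -0.09 to 0.26 without single arrays. The replicate block changed no other call of the 4 miRNAs. Without normalization between arrays the median of all tested miRNAs was -0.12, and relative to it the 4 differed by 1.09, 0.04, 0.58 and -0.01, in the order miR-21a-5p, miR-146a-5p, miR-146b-5p and miR-155-5p.

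Against 0 as reported, the number of miRNAs past the adjusted threshold was 44 with median centring, 64 when arrays were not normalized to each other, 26 with the scanner total, 7 with the deposited table, 51 with the trend removed, 2 with an intensity trend in limma, 86 with the replicate block, and 1 (without vehicle 2) to 229 (without vehicle 1) without single arrays. Against 149, the number past the unadjusted threshold was 91 with median centring, 60 by SAM, 52 by the methods' t-test, and 61 (without CL 1) to 262 (without vehicle 1). Of the inflammation-related list, 3 as reported, it was 1 with median centring and 0 by the methods' t-test. With the trend removed it was 7, of which 5 were higher with CL and 2 lower. Without a filter it was 6, of which 5 were higher and 1 lower.

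Signs also turned for miR-21a-3p (-0.02 to 0.25 without single arrays) and for neighbours in pattern. Without normalization between arrays let-7a-1-3p and miR-26a-5p were both at -0.02. With the scanner total miR-26a-5p was at -0.03, miR-676-3p at -0.23, miR-3058-3p at 2.11, miR-551b-5p at 0.31 and miR-874-3p at 0.66. With the deposited table miR-26a-5p was at -0.09 and miR-874-3p at 0.06. With the trend removed let-7a-1-3p was at -0.53, miR-328-3p at -0.11, miR-3058-3p at 0.44, miR-551b-5p at 0.15 and miR-874-3p at 0.27. Scaling to the 75th percentile of detected miRNAs or of all spots gave -0.10 and -0.03 for miR-328-3p. Without single arrays the ranges were -0.06 to 0.11 for let-7a-1-3p, -0.01 to 0.24 for miR-26a-5p, -0.16 to 0.04 for miR-3058-3p, -0.10 to 0.04 for miR-551b-5p and -0.18 to 0.03 for miR-874-3p. Arrays measure signal over background, which was smallest for miR-155-5p and miR-21a-3p.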
